A study of Mus musculus with 8 samples.

Results

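The 9 genes described here encode receptors for noradrenaline and dopamine, 6 adrenergic (Adra1a, Adra1b, Adra1d, Adra2a, Adra2c and Adrb1) and 3 dopamine (Drd1, Drd5 and Drd2). They were taken by gene symbol from a hippocampal count table of 46078 gene entries, and each symbol matched 1 entry. The Cre mice were Cre+/- for the Tg(Camk2a-cre)2Gsc transgene (CamiCre), whose Camk2a sequences direct expression of Cre recombinase mainly to excitatory neurons of the forebrain. They were set against wild type (WT) mice, and both groups were 9 weeks old and of strain C57BL/6J. Each group had 4 libraries of poly(A)-selected RNA, numbered in the labels, which do not say whether each came from a different animal, so the p-values measure the spread between these libraries. The labels name no floxed gene, so hippocampi with the transgene were compared with hippocampi without it. The series title names Syt2 as the gene misexpressed in this line, and the receptors are not its subject.

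Both transmitters are catecholamines. Noradrenaline reaches the hippocampus from the locus coeruleus, and dopamine from the ventral tegmental area and also from the locus coeruleus. The receptors span the cell membrane and signal through G proteins. Alpha-1 receptors act through Gq and phospholipase C, alpha-2 and D2-like receptors act through Gi and lower cyclic AMP, and beta and D1-like receptors act through Gs and raise cyclic AMP. These signals are known to modulate synaptic plasticity and memory in the hippocampus.

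The 4 Cre libraries held 21339996 to 27826871 counts and the 4 WT libraries 24289522 to 26950207. Of all entries, 15859 had enough counts to be tested, all 9 receptors among them. With edgeR's quasi-likelihood test and Benjamini-Hochberg adjustment, 5 of these genes passed the threshold of 0.05. Summed markers of hippocampal neurons were present in each library, at 511 to 707 CPM in Cre and 541 to 638 CPM in WT for dentate granule neurons, and at 660 to 834 CPM in Cre and 720 to 820 CPM in WT for CA1 pyramidal neurons (CPM are counts scaled to a fixed library size after normalisation). For CA3 pyramidal neurons the sums were 162 to 219 CPM in Cre and 182 to 208 CPM in WT. WT replicate 1 stood apart in markers of choroid plexus, the tissue that makes cerebrospinal fluid, at 1588 CPM, against 123 to 159 CPM in Cre and 122 to 147 CPM in the other WT libraries. The 6 choroid plexus markers tested all lay below 0 in Cre over WT, 4 of them with an unadjusted p under 0.05 by edgeR. Such a p was found in 3.5% of all tested genes, and the Cre and WT libraries overlapped in each of the 6.

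The receptors are related in sequence, which bears on whether reads can be told apart. Among the 36 pairs, the coding sequences were 58.1% to 74.8% identical over their aligned bases, and the longest identical run was 26 bases, with reads of 150 bases from each end. The stretches with the longest identical run of the alpha-2 pair, the D1-like pair and 1 of the alpha-1 pairs are shown to give the extent of identity within a receptor class, 5′ to 3′ on the coding strand (GENCODE M21, GRCm38), with the identical run in capitals.
Adra2a (chr19:54046662-54046717, plus strand): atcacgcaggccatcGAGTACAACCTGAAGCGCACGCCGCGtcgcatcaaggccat
Adra2c (chr5:35280342-35280397, plus strand): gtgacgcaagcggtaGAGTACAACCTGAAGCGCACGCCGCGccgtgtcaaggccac
Drd1 (chr13:54053859-54053911, minus strand): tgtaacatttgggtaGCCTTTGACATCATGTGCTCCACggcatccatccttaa
Drd5 (chr5:38319996-38320048, plus strand): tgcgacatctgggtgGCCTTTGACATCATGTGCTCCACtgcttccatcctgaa
Adra1a (chr14:66638340-66638389, plus strand): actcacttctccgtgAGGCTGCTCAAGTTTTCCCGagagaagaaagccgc
Adra1d (chr2:131561147-131561196, minus strand): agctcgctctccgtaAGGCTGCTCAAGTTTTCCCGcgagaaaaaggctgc

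The runs are 26, 23 and 20 bases long, and identity over the aligned coding bases was 74.8% for Adra2a and Adra2c, 70.5% for Drd1 and Drd5 and 67.4% for Adra1a and Adra1d. Of the 9 receptors, 8 had no stretch of 150 bases in common with an annotated transcript of any other gene, on either strand. The exception was Drd5, where 46% of such stretches lie in the opposite-strand gene Gm26560. The library kit keeps strand, per the labels, but whether the counting used it is not given, so reads of Drd5 and Gm26560 may not have been told apart. Gm26560 itself had 8 to 14 counts in the Cre libraries and 9 to 22 in the WT libraries. Adra1d shares 147 exon bases, 7.74% of its exon length, with the opposite-strand gene Gm14285, which had 78 to 92 counts in Cre and 83 to 117 in WT. In 5 of the receptors (Adra2a, Adra2c, Adrb1, Drd1 and Drd5) the coding sequence lies in 1 exon, and in the other 4 it is split.

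No difference between Cre and WT hippocampus was detected in any of the 9 receptors. By edgeR's quasi-likelihood test 0 passed after adjustment over all tested genes (adjusted p = 0.999 for each), where 0.0315% of all tested genes passed, and 0 had an unadjusted p under 0.05, against 3.5% of all tested genes. DESeq2 also called 0 of 9 (0.0442% of all genes with an adjusted p), as did limma voom. In 0 of 9 did the libraries of both groups separate without overlap, as they did in 2.31% of tested genes. Of the receptors, 5 lay below 0 and 4 above 0 on the log2 scale, with a median of -0.02, where 49.8% of all tested genes lay below 0 and their median was 0.0004. In bulk hippocampal RNA, fewer cells of a type and less RNA per cell cannot be told apart.

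**Figure D1:**
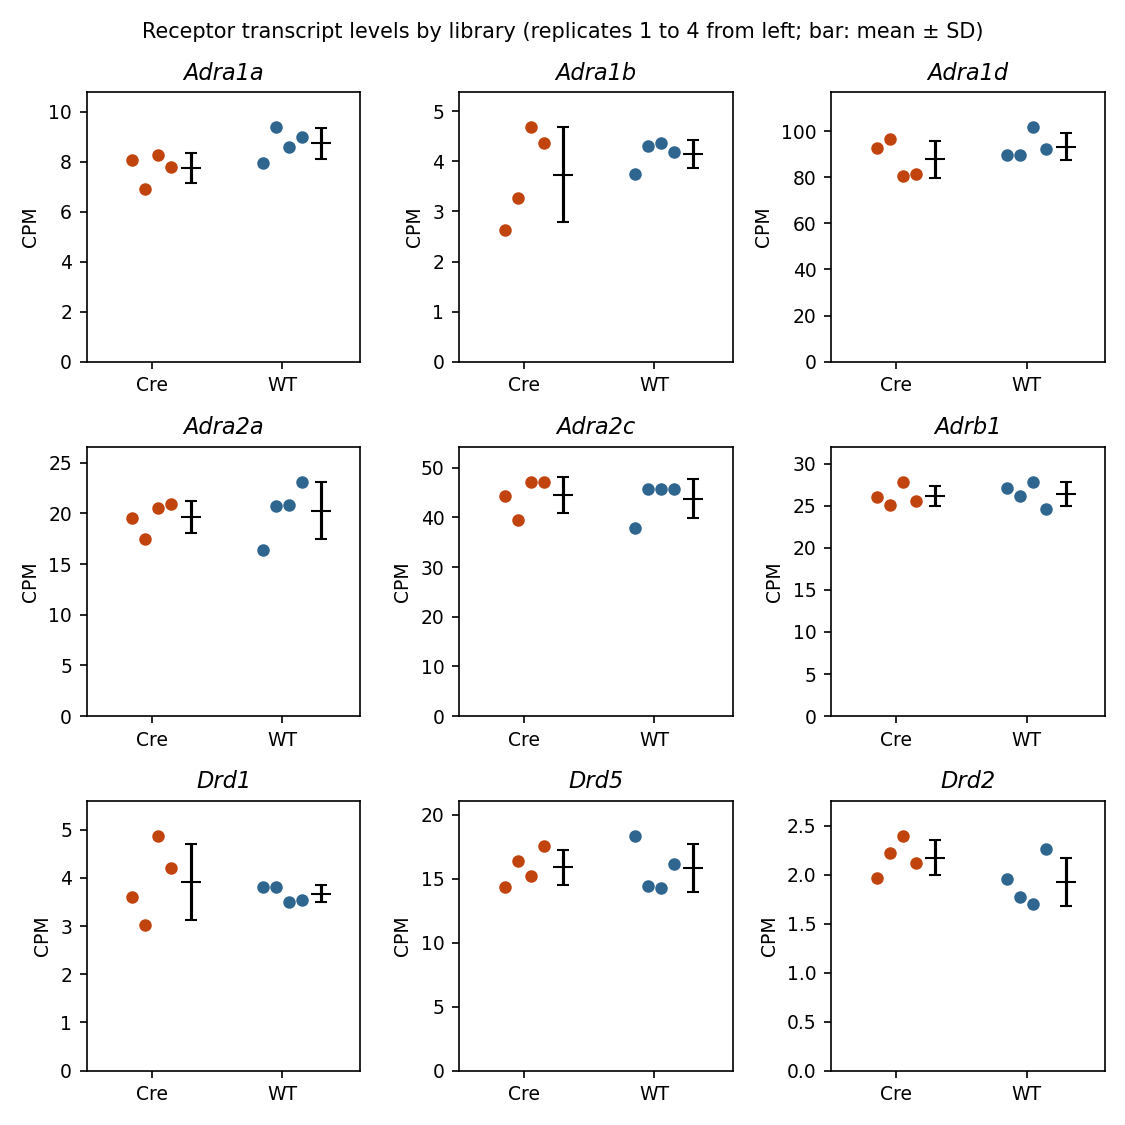
CPM of each receptor in the 4 Cre libraries (orange) and 4 WT libraries (blue), replicates 1 to 4 from left to right, with the mean ± SD beside each group in black. The groups overlap in all 9 panels, and Adra1b and Drd1 spread more widely in Cre, between 2.64 and 4.68 CPM and between 3.03 and 4.86 CPM.

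All 3 alpha-1 receptors lay below 0 in Cre over WT, and none passed. Adra1d, the alpha-1 receptor of highest level in these libraries, had 92.7, 96.6, 80.6 and 81.2 CPM in Cre replicates 1 to 4, against 89.5, 89.5, 102 and 92.5 CPM in WT replicates 1 to 4. Cre replicates 3 and 4 lay below every WT library, and the other 2 Cre libraries lay inside the WT range. The means were 87.8 ± 8.07 CPM in Cre and 93.3 ± 5.78 CPM in WT (SD, n = 4 each), a log2 fold change of -0.09 (SE 0.06, 95% confidence interval -0.23 to 0.05). As a change relative to WT that interval runs from -14.7% to 3.63%. The gene spans 131545850 to 131562283 on the minus strand of chromosome 2 (GRCm38).

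Adra1a, an alpha-1 receptor also known from smooth muscle and heart, lay closest to a difference among the 9. It had 8.08, 6.90, 8.26 and 7.79 CPM in Cre replicates 1 to 4, against 7.96, 9.38, 8.60 and 8.97 CPM in WT replicates 1 to 4. Cre replicates 2 and 4 were below every WT library, and the other 2 lay among the lower WT values. The means were 7.76 ± 0.601 CPM in Cre and 8.73 ± 0.602 CPM in WT, with a log2 fold change of -0.17 (SE 0.09, 95% confidence interval -0.36 to 0.03; unadjusted p = 0.0905 by edgeR). The exact permutation test over the 8 libraries, 2-sided, gave p = 0.0857 for it, where the smallest p that 4 libraries against 4 allow is 0.0286. Adra1a lies on the plus strand of chromosome 14, from 66635251 to 66771168.

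Adra1b, the third alpha-1 receptor, had 2.64, 3.26, 4.68 and 4.36 CPM in Cre replicates 1 to 4, against 3.74, 4.30, 4.36 and 4.20 CPM in WT replicates 1 to 4. Its Cre libraries surrounded the WT range, 2 below it and 2 above it. The coefficient of variation was 25.5% in Cre and 6.78% in WT, where counting alone gives 10.4% in Cre and 9.71% in WT. The log2 fold change was -0.14 (SE 0.17), and its interval reached from -30.1% to 17.3% of the WT level. Adra1b lies on the minus strand of chromosome 11, from 43774606 to 43901210.

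The alpha-2 receptors, which in noradrenergic terminals also act as autoreceptors that curb transmitter release, had nearly the same mean in both groups. Adra2c had 44.3, 39.4, 47.2 and 47.1 CPM in Cre replicates 1 to 4, against 37.8, 45.7, 45.6 and 45.8 CPM in WT replicates 1 to 4. WT replicate 1 was the lowest of the 8 libraries, Cre replicate 2 came next, and the other 6 lay within a few CPM of each other. The log2 fold change was 0.03 (SE 0.07), and the interval runs from -8.48% to 13.5%. Adra2a had 19.6, 17.4, 20.5 and 21.0 CPM in Cre replicates 1 to 4, against 16.4, 20.7, 20.8 and 23.1 CPM in WT replicates 1 to 4. The same 2 libraries were the lowest, and all 4 Cre libraries lay inside the WT range. Its log2 fold change was -0.04 (SE 0.09), with an interval from -15.7% to 12.1%.

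The 2 alpha-2 genes moved together from library to library. On a scale corrected for length (RPKM, which is CPM per kilobase of annotated exon), Adra2c stood at 3.18 ± 0.034 times the level of Adra2a in the Cre libraries and at 3.05 ± 0.195 times in the WT libraries (SD, n = 4 each). Of the 36 pairs of receptors, they had the highest Pearson correlation of log2 CPM across the 8 libraries after each group was centred on its mean, 0.93. Adra1a also varied with both, at 0.87 with Adra2c and 0.77 with Adra2a. These are descriptions over 8 libraries that share normalisation and dissection, and among the 36 pairs 20 lay above 0 and 16 below. The lowest value was -0.88, between Adra1d and Drd1. Adra2a lies on chromosome 19 from 54044151 to 54048982, and Adra2c on chromosome 5 from 35278319 to 35281763, both on the plus strand.

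Adrb1, the beta-1 receptor, known for its role in heart muscle and present in forebrain neurons, had the smallest error of the 9. It had 26.0, 25.1, 27.9 and 25.5 CPM in Cre replicates 1 to 4, against 27.1, 26.2, 27.8 and 24.6 CPM in WT replicates 1 to 4. The ranges nearly coincided. The coefficient of variation was 4.64% in Cre and 5.35% in WT, close to the 3.95% in Cre and 3.84% in WT that counting alone gives. The log2 fold change was -0.02 (SE 0.06), and its interval runs from -8.98% to 7.60%. On chromosome 19 Adrb1 occupies 56722199 to 56733113, plus strand.

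Of the D1-like receptors, Drd5 was the more abundant. It had 14.4, 16.4, 15.2 and 17.6 CPM in Cre replicates 1 to 4, against 18.3, 14.5, 14.3 and 16.2 CPM in WT replicates 1 to 4. All 4 Cre libraries lay inside the WT range. The means were 15.9 ± 1.39 CPM in Cre and 15.8 ± 1.88 CPM in WT, and the log2 fold change was 0.01 (SE 0.09), with an interval from -12.3% to 15.1%. On chromosome 5 Drd5 occupies 38319367 to 38322518, plus strand.

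Drd1, the D1 receptor best known from striatal projection neurons, had 3.60, 3.03, 4.86 and 4.20 CPM in Cre replicates 1 to 4, against 3.81, 3.82, 3.49 and 3.54 CPM in WT replicates 1 to 4. The Cre libraries lay on both sides of a narrow WT range, 1 below, 1 inside and 2 above. Their coefficient of variation was 20.1%, against 4.80% in WT, where counting alone gives 10.1% in Cre and 10.3% in WT. The log2 fold change was 0.10 (SE 0.15), with an interval from -14.4% to 35.1%. On chromosome 13 Drd1 occupies 54051183 to 54055705, minus strand. On the RPKM scale Drd5 stood at 4.82 ± 1.09 times the level of Drd1 in the Cre libraries and at 4.97 ± 0.529 times in the WT libraries. These ratios share the uncertainty of the Drd5 counts given above.

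Drd2, the D2 receptor targeted by antipsychotic drugs and known in the mouse hippocampus from mossy cells of the dentate hilus, was the least abundant. It had 1.97, 2.22, 2.40 and 2.12 CPM in Cre replicates 1 to 4, against 1.96, 1.78, 1.70 and 2.26 CPM in WT replicates 1 to 4. Of the Cre libraries, 3 lay inside the WT range and 1 above it. With only 41 to 67 counts in a library its interval was wide, from -11.8% to 45.0% (log2 fold change 0.18, SE 0.17; exact permutation p = 0.171, 2-sided). Its 8 exons lie between 49340627 and 49408177 of chromosome 9, plus strand.

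**Figure D2:**
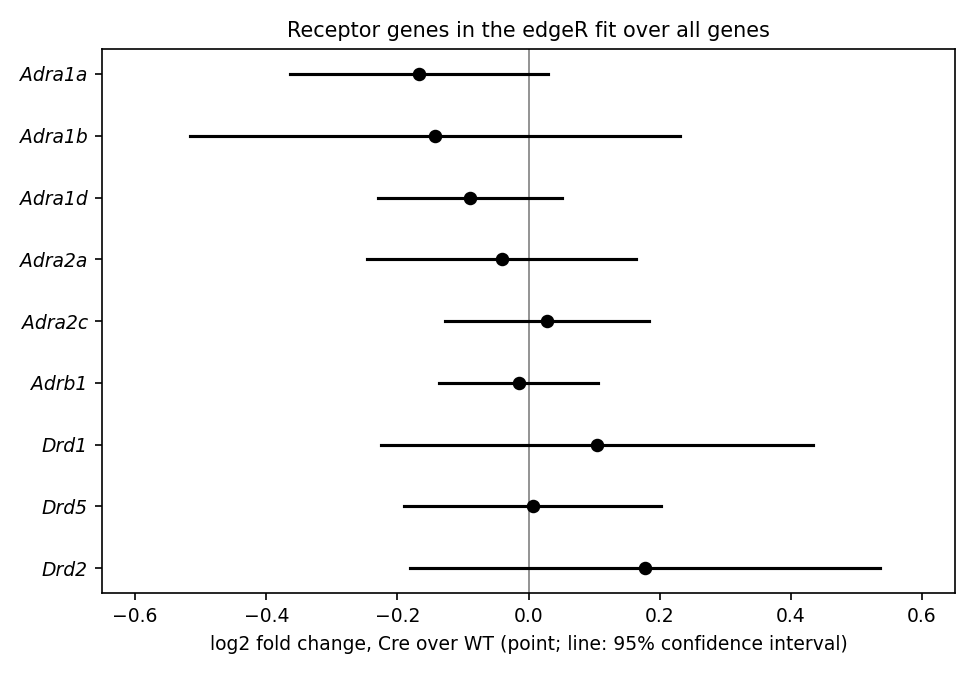
Log2 fold change of each receptor, Cre over WT, from edgeR's fit over all genes (points), with 95% confidence intervals (lines). Every interval includes 0, the narrowest being that of Adrb1 (-0.14 to 0.11) and the widest that of Adra1b (-0.52 to 0.23).

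Drd1 and Drd2 are abundant in striatum, and Drd2 in mossy cells. The 10 striatal markers summed to 109 to 119 CPM in Cre and 112 to 117 CPM in WT, most of it Pde10a, which had 85.2 ± 3.81 CPM in Cre and 87.0 ± 2.86 CPM in WT. None of the 10 was at 0 in all libraries, but 5 averaged under 1 CPM, among them Isl1, a factor of striatal neurons, with 1 count in all Cre libraries and 0 in all WT libraries. The 4 mossy cell markers summed to 42.9 to 53.1 CPM in Cre and 43.3 to 48.6 CPM in WT. Their part in the levels of Drd1 and Drd2 was not tested.

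Most glial markers lay above 0 in Cre over WT. Over all tested genes, 49.8% lay below 0 and 3.5% had an unadjusted p under 0.05 by edgeR. Of 8 microglia markers all lay above 0 and 5 had an unadjusted p under 0.05 by edgeR, with sums of 378 to 489 CPM in Cre and 348 to 376 CPM in WT, which did not overlap. Cre replicate 1 alone made the upper end, with the other 3 Cre libraries at 378 to 389 CPM. Of 8 astrocyte markers 7 lay above 0 and 3 had such a p, with sums of 4670 to 5357 CPM in Cre and 4364 to 4627 CPM in WT, which also did not overlap; here too Cre replicate 1 was the highest, with the others at 4670 to 4876 CPM. Most of the astrocyte sum was Slc1a2, at 3210 ± 104 CPM in Cre and 2974 ± 108 CPM in WT. No marker of either list was at 0, and 0 passed after adjustment by edgeR. All 7 oligodendrocyte markers also lay above 0, 2 of them with such a p, with sums of 3933 to 5042 CPM in Cre and 3915 to 4352 CPM in WT, which overlapped. Interneuron markers summed to 787 to 908 CPM in Cre and 844 to 896 CPM in WT. Their part in the receptor values was not tested.

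Single libraries recurred at the low end. Cre replicate 2, the shallowest library, was the lowest of the Cre libraries in 5 of the 9 receptors (Adra1a, Adra2a, Adra2c, Adrb1 and Drd1) and the highest in Adra1d. WT replicate 1, the deepest WT library, was its group's lowest in 5 (Adra1a, Adra1b, Adra1d, Adra2a and Adra2c) and the highest in Drd5. Both had the lowest CA1 and striatal marker sums of their group. These were 660 and 109 CPM in Cre replicate 2, and 720 and 112 CPM in WT replicate 1. WT replicate 1 also had the lowest WT sums of interneuron, neocortex, mossy cell and oligodendrocyte markers. In other lists the same 2 libraries were the highest of their group. Cre replicate 2 was so in mossy cell markers (53.1 CPM). WT replicate 1 was so in thalamus and habenula (65.9 CPM), microglia (376 CPM) and choroid plexus markers. The part of these in the receptor values was not tested. Without WT replicate 1, the library with choroid plexus markers, the log2 fold changes were -0.04 for Adra2c and -0.13 for Adra2a, and 0 receptors passed by edgeR or had an unadjusted p under 0.05.

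Levels were compared between receptors only on the RPKM scale. Adra1d ranked first at 46.2 ± 4.25 RPKM in Cre and 49.1 ± 3.05 RPKM in WT (SD, n = 4 each), above 94.2% of the tested genes with a length. Adra2c came next at 12.9 ± 1.06 RPKM in Cre and 12.7 ± 1.14 RPKM in WT, then Adrb1 at 7.73 ± 0.358 RPKM in Cre and 7.81 ± 0.418 RPKM in WT. The ranges of these 3 over the 8 libraries did not overlap with each other or with the next receptor down. Drd5 (5.04 ± 0.440 RPKM in Cre, 5.02 ± 0.597 in WT) and Adra2a (4.06 ± 0.322 in Cre, 4.19 ± 0.583 in WT) followed with overlapping ranges. Drd5 was the higher in all 8 libraries. Its level and place are uncertain, because 48.6% of its exon bases are shared with Gm26560 and the strand setting is not given.

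The remaining 4 formed a low group. Adra1b had 1.10 ± 0.282 RPKM in Cre and 1.23 ± 0.083 in WT. Drd1 had 1.08 ± 0.218 in Cre and 1.01 ± 0.048 in WT. Adra1a had 0.889 ± 0.069 in Cre and 0.9998 ± 0.069 in WT, and Drd2 had 0.854 ± 0.071 in Cre and 0.757 ± 0.098 in WT. Over the 8 libraries the ranges of neighbours in this order overlapped, and Adra1b was above Drd1 in 7, Drd1 above Adra1a in 5 and Adra1a above Drd2 in 7. Within the Cre libraries all 3 neighbouring pairs overlapped. Within the WT libraries Adra1b (1.11 to 1.29) lay above Drd1 (0.962 to 1.05) without overlap, as did Adra1a (0.912 to 1.07) above Drd2 (0.669 to 0.888), while Drd1 and Adra1a overlapped. Drd2 stood above 18.9% of tested genes. The place of Adra1a depends on its length: with its longest transcript (4282 bases) in place of all its annotated exons (8728 bases) it had a mean of 1.92 RPKM over the 8 libraries and moved up to place 6, ahead of Adra1b and Drd1. The annotation release behind the counts is not given, so the lengths, from GENCODE M21, may differ from those the counts were made with.

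**Figure D3:**
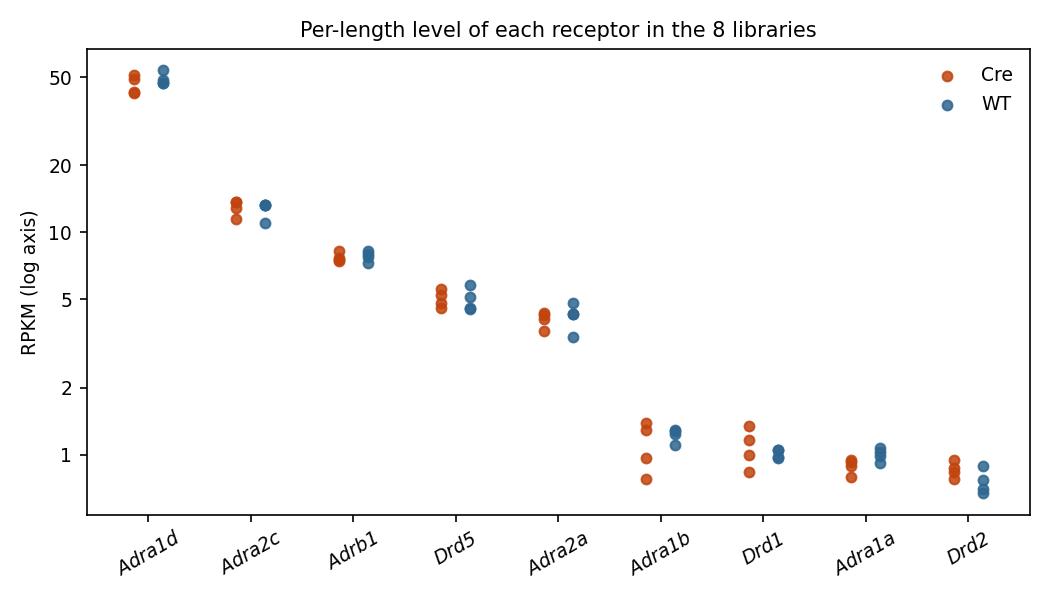
RPKM (log axis) of the 9 receptors in the 4 Cre libraries (orange, left of each pair) and 4 WT libraries (blue, right), ordered by mean. Adra1d lies at 42.5 to 53.6 RPKM, apart from all others, and the last 4 receptors overlap between 0.669 and 1.39 RPKM.

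The makeup of the set was also computed, as shares of the summed RPKM of the 9 receptors. Adrenergic receptors made up 91.2% ± 0.831 in Cre and 91.8% ± 1.11 in WT, and dopamine receptors 8.75% ± 0.831 in Cre and 8.22% ± 1.11 in WT. By coupling, the Gq-coupled alpha-1 receptors held 60.3% ± 3.36 in Cre and 61.97% ± 1.19 in WT, of which Adra1d alone was 57.8% in Cre and 59.3% in WT. The Gi-coupled receptors held 22.4% ± 2.27 in Cre and 21.3% ± 1.70 in WT, and the Gs-coupled 17.4% ± 1.17 in Cre and 16.7% ± 1.42 in WT. Each of these differences was smaller than the SD of at least 1 group. All shares rest on a sum that includes Drd5, whose level is uncertain because of Gm26560.

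Other genes of the same families were near the limit of detection. Adrb3, the beta-3 receptor best known from fat tissue, had 4 to 28 counts in the Cre libraries and 11 to 19 in the WT libraries. It was tested, with a log2 fold change of 0.18 (SE 0.44), and did not pass. Adrb3 shares 24.9% of its exon bases with the opposite-strand gene Gm45470, so its counts are uncertain in the same way as those of Drd5. Adra2b gave 7 counts over the Cre libraries and 13 over the WT libraries, and Drd3 gave 10 in Cre and 8 in WT, too few to be tested. A library with 0 counts of a gene could still hold up to 0.107 to 0.142 CPM of it, the level of 3 counts.

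Drd4, a D2-like receptor, was also too low for the test. It had 10, 4, 5 and 6 counts in Cre replicates 1 to 4, against 2, 1, 4 and 0 counts in WT replicates 1 to 4. After scaling to library size each Cre library lay above each WT library. The ranges were 0.179 to 0.418 CPM in Cre and 0 to 0.166 CPM in WT. Groups also separated in 2.31% of the tested genes, which do not include Drd4. The ratio of the summed counts, 25 in Cre and 7 in WT, was 3.75 once library sizes were allowed for, with an exact 95% interval of 1.58 to 10.3 that covers counting error alone. In an edgeR fit with no filter on low counts its log2 fold change was 1.83 with an unadjusted p = 0.0111 and an adjusted p = 0.891, so it did not pass. Of all tested genes in the filtered fit, 3.5% had an unadjusted p under 0.05 by edgeR. In the authors' deposited table the log2 fold change of Drd4 is 1.83 and its p-value 0.00482.

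Several genes that make or carry the catecholamines themselves were low, and others were not. Among the latter, the carrier gene Slc29a4 had 31.5 ± 2.61 CPM in Cre and 32.0 ± 3.93 CPM in WT. The neurons that use these transmitters have their cell bodies outside the hippocampus, and the part of this in the levels was not tested. Th, the rate-limiting enzyme of catecholamine synthesis, had 0.681 ± 0.162 CPM in Cre and 0.783 ± 0.263 CPM in WT. Dbh, which makes noradrenaline from dopamine, gave 34 counts over the Cre libraries and 34 over the WT libraries. The dopamine carrier gene Slc6a3 gave 25 in Cre and 27 in WT. Of the 17 genes in this list 12 were tested, 8 above 0 and 4 below, with a median log2 fold change of 0.02, and 0 passed by edgeR, 0 with an unadjusted p under 0.05. The smallest p belonged to Ddc, the decarboxylase that makes dopamine from L-DOPA (5.77 ± 0.750 CPM in Cre, 4.96 ± 0.440 CPM in WT; log2 fold change 0.22, SE 0.12). Next came Gch1, needed to make the cofactor of Th (log2 fold change 0.35, SE 0.26).

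No gene of the signalling lists passed. Of 17 G protein subunits, all tested, 8 lay above 0 and 9 below (median -0.003). Their smallest p belonged to Gna14, a Gq-family subunit, with 0.787 ± 0.149 CPM in Cre and 1.03 ± 0.117 CPM in WT. Its groups did not overlap, which held for 2.31% of all tested genes. Its log2 fold change of -0.39 (SE 0.23) did not pass by edgeR. Gnai3 and Gnai1, subunits of Gi, followed with 0.08 (SE 0.05) and -0.06 (SE 0.04). Of 17 receptor kinases, arrestins, RGS proteins and partners, 10 lay above 0 and 7 below (median 0.01), led by Rgs7, Rgs9 and Rgs2, which speed the turning off of G proteins, with log2 fold changes of -0.07 (SE 0.04), 0.09 (SE 0.07) and 0.06 (SE 0.05).

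Of 20 genes of cyclic AMP and protein kinase A signalling, 7 lay above 0 and 13 below (median -0.02). Prkar1a, a regulatory subunit of the kinase, had 691 ± 33.8 CPM in Cre and 720 ± 6.47 CPM in WT, Prkaca, a catalytic subunit, had 194 ± 4.62 CPM in Cre and 201 ± 5.50 CPM in WT, and Pde4b, a phosphodiesterase that degrades cyclic AMP, had 73.3 ± 3.21 CPM in Cre and 76.3 ± 1.88 CPM in WT. Of 9 genes of the phospholipase C branch, 4 lay above 0 and 5 below (median -0.01), led by Itpr2, Plcb1 and Itpr1 with log2 fold changes of 0.09 (SE 0.05), -0.06 (SE 0.06) and -0.06 (SE 0.06). In these 4 downstream lists 0 genes passed by edgeR, DESeq2 or limma voom, and 0 had an unadjusted p under 0.05 by edgeR.

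**Figure D4:**
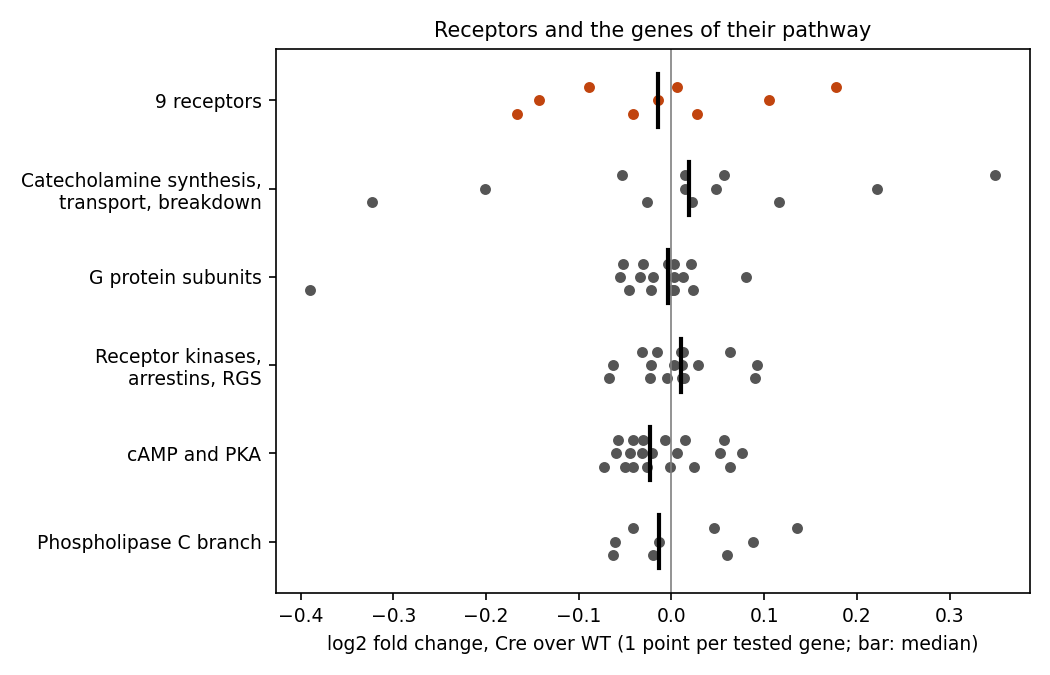
Log2 fold change, Cre over WT, of the 9 receptors (orange) and of each tested gene in the 5 pathway lists (grey), with the median of each list as a black bar. All medians lie between -0.02 and 0.02, and the receptors run from -0.17 to 0.18.

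Genes that followed a receptor most closely from library to library were sought among the 11494 or 11495 others of at least 5 CPM, by the Pearson correlation of log2 CPM over the 8 libraries after centring each group. The 2 best matches per receptor reached 0.959 to 0.993. With so many genes compared over 8 libraries, each receptor had matches this high, and the values are a description only. Adra1d was matched most closely by App, the amyloid precursor gene (0.990), and Syn1, a synaptic vesicle protein gene (0.988). Adra2c was matched by Plod3 (0.993) and Adra2a by Herpud1 (0.991), Adra1a by Shf (0.985), Adra1b by Slc35f1 (0.990), Adrb1 by Hdac3 (0.972), Drd1 by Tekt5 (0.968), Drd5 by 2610034B18Rik (0.983) and Drd2 by Selk (0.982).

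**Figure D5:**
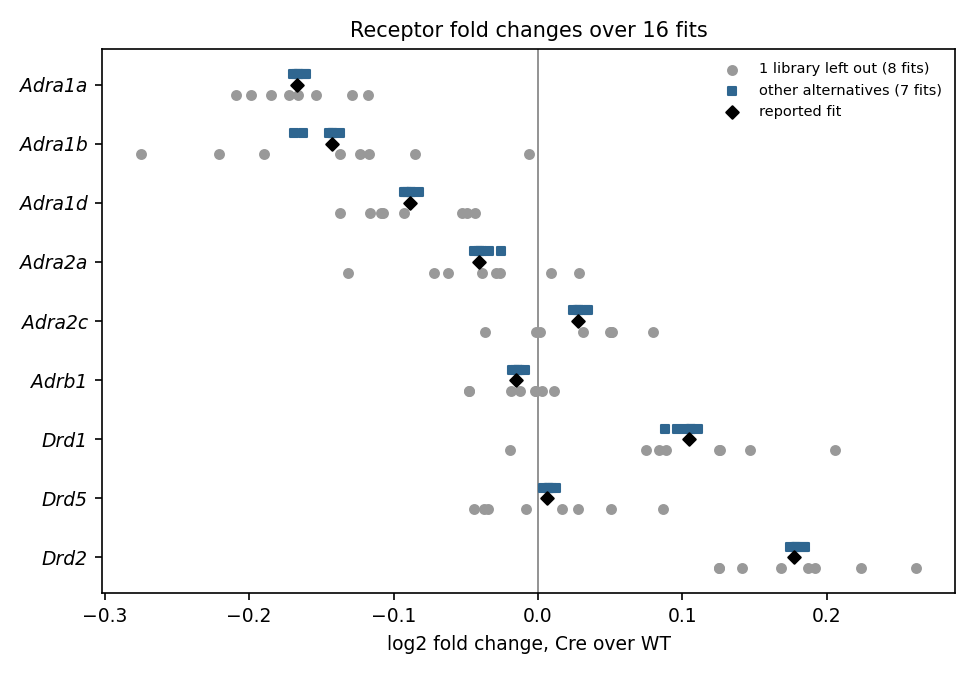
Log2 fold change of each receptor, Cre over WT, in the reported fit (black), with 1 library left out (grey, 8 fits) and under 7 other alternatives of scaling, filter, test or replicate block (blue). Leaving out a library moves the values more than the other alternatives do, for Adra1b between -0.27 and -0.006.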

How the data were processed

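Hippocampal poly(A) RNA was sequenced in 4 Cre and 4 WT libraries. The deposited table holds raw counts per gene symbol. The submitters' processing notes name GRCm38, STAR 2.6.1d, edgeR 3.11 and featureCounts, with no version of the last. For the counting step, neither the annotation release nor the strand setting is given in the sources used here. The authors' deposited comparison table also holds a log2 fold change, an average log2 CPM, 2 score columns made from them (a signed fold and a smoothed CPM) and a p-value per gene, not stated to be adjusted or not. It was read only as a side value: its log2 fold change for Adra1a was -0.16 with a p-value of 0.123.

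The low-count filter was edgeR's filterByExpr, with a minimum count of 10 and a minimum total of 15, and it left 15859 genes holding 99.9% of counts in each library. Normalisation used TMM (factors 0.988 to 1.01), and the test was edgeR's quasi-likelihood test (R 4.3.3 with edgeR 4.0.16) without covariates. P-values are 2-sided and were adjusted by Benjamini-Hochberg across every tested gene. Standard errors and intervals come from that fit, whose median SE over all tested genes was 0.0742 on the log2 scale. The code was tested on simulated data. Exact permutation tests of single genes used log2 CPM, with 70 arrangements of the group labels. RPKM used GENCODE M21 exon lengths, available by symbol for 95.1% of tested genes. Symbols such as Adrbk1 (Grk2 in M21) show that the counts were made with other gene names. Where a listed symbol had more than 1 entry, the entry with more counts was used.

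The members and gene lists were chosen with earlier results of these data known. Named genes are the 9 receptors, others of their families, up to 3 of each pathway list with the smallest unadjusted p, and the 2 best library-to-library matches per receptor, of which 1 is printed for most. Outside the rule, Th, Dbh, Slc6a3, Slc29a4, Pde10a, Isl1, Slc1a2, Enpp2 and Ttr are named, chosen with their values in view. Some genes that the rule would name are not reported here. Alternatives were RLE or no factors, no filter, a filter at 1 CPM, DESeq2 1.42.0, limma voom (limma 3.58.1), the replicate number as a block, and leaving out each library.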

Additional observations from a re-analysis of the deposited data

Results flagged for a closer look

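Adra2c in WT replicate 1, at 37.8 CPM, lay far below the other 3 WT libraries, which stood between 45.6 and 45.8 CPM. The gap to the nearest of them is 0.981 of the range of the WT group; the rule used was Dixon's at the 95% level. The same library had 1588 CPM of summed choroid plexus markers, and the part of these in the Adra2c value was not tested. At that level chance flags about 1 of 20 groups. The rule was applied to both groups for each of the 9 receptors and for the 5 others of their families.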

How the results depend on the processing

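No receptor passed the threshold under any of the 15 alternatives, with adjusted p from 0.891 to 0.9999, and the lowest unadjusted p of any was 0.0511 (Adra1a without WT replicate 1). Adra1a, Adra1b, Adra1d and Drd2 kept their direction in all 15. The signs of the other 5 changed, each with 1 library left out. Without Cre replicate 2 the log2 fold change was 0.009 for Adra2a, 0.003 for Adrb1 and -0.008 for Drd5. Without Cre replicate 3 it was -0.002 for Adra2c and -0.019 for Drd1, and without Cre replicate 4 it was -0.045 for Drd5. Without WT replicate 1 it was -0.037 for Adra2c, without WT replicate 2 -0.035 for Drd5, without WT replicate 3 0.011 for Adrb1 and -0.037 for Drd5, and without WT replicate 4 0.029 for Adra2a. The cause was not tested. With 1 library left out, Adra2a ranged from -0.13 to 0.029, Adra2c from -0.037 to 0.080, Adrb1 from -0.048 to 0.011, Drd1 from -0.019 to 0.21, Drd5 from -0.045 to 0.087 and Adra1b from -0.27 to -0.0064, and 4 to 7 of the 9 lay below 0. With the replicate number as a replicate block, 0 receptors and 6 genes in all passed. Same-numbered libraries did not deviate together (correlations 0.203, -0.114, 0.0199 and 0.0212 for numbers 1 to 4), so the numbers were not taken as pairs. Over all genes the count past the threshold ran from 4 to 7, against 5 as reported, and with DESeq2 and with no filter it was 7. Drd2, Drd1 and Adra1b had the fewest counts, 41 to 136 a library, and differences inside the printed intervals are not excluded.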
